A study of Homo sapiens with 3 samples.

Results

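Xenobiotic-metabolizing enzymes were followed after knockdown of OCC-1 (gene symbol C12orf75) in the established human cell line Caco-2, which derives from a colorectal cancer and can differentiate towards small-intestinal enterocytes. A list of 50 genes was looked up by symbol in the probe annotation of the arrays. It held esterases, cytochrome P450 enzymes with their reductase POR, conjugating enzymes, quinone reductases, aldehyde dehydrogenases, epoxide hydrolases and the ligand sensors AHR and NR1I2. Of these 50 genes, 43 had at least 1 probe set that named no other gene, out of 18132 such genes on the arrays, and together they had 105 of the 49395 probe sets. A further 19 probe sets named a listed gene together with others and were left out of the main counts of genes. Values are given for those naming CES1, CYP2B6, CYP4F2 or UGT2B17 and for 8 of the 9 naming UGT1A6. The brightest probe set stood for each gene, and 32 of the 43 genes had a mean over the arrays at or above the median of all probe sets (an intensity of 184), as did 11329 of the 18132 genes. CES3, CYP2C18, SULT1A1 and NR1I2 had no probe set under their own name among those used here, and CES1, UGT1A6 and UGT2B17 had only probe sets that named several genes.

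Each of the 3 arrays held total RNA of 1 sample. The control expressed the control hairpin shCTRL, and the knockdown samples expressed shOCC-1-1 (line 1) or shOCC-1-2 (line 2), each delivered by lentivirus. All 3 were grown with 20% serum, selected for 5 days with puromycin at 1 µg per ml, and harvested 24 hours after the drug was withdrawn, so the control carried the same vector treatment and selection. The intensity of OCC-1 was 1219 with shCTRL, 518 with the first hairpin and 397 with the second (log2 difference -1.43 ± 0.15 SE, limma adjusted p = 0.0049). Median intensities were 182 to 186 on the 3 arrays, and 9 of 9 measured markers of enterocyte-like epithelium (VIL1, CDX2, CDH1 and EPCAM among them) lay above the threshold, against 3 of 6 fibroblast, 2 of 5 leukocyte and 1 of 5 endothelial markers. The leukocyte marker PTPRC was at 75.5 to 80.1, and hepatocyte markers, 5 of 6 of them above the threshold, included ALB at 1849 to 1936 and TTR at 5413, 3175 and 3655 in control, line 1 and line 2. Summed over each list in control, line 1 and line 2, enterocyte markers were at 31623, 34394 and 34920, hepatocyte markers at 20339, 18731 and 18448 (14927, 15557 and 14794 without TTR), leukocyte markers at 1005, 1358 and 1161 (LYZ alone at 381, 740 and 606), fibroblast markers at 1151, 1130 and 1145 and endothelial markers at 791, 730 and 778. Within the enterocyte list VIL1, CDH1 and EPCAM were above control in both lines, while ALPI (453, 389 and 368) and CDH17 (3387, 3169 and 2961) were below it. Their part in the results was not tested. The 23 background control probe sets had log2 differences from the control array of -0.37 to 0.06 in line 1 and -0.23 to 0.04 in line 2, and their part in the results was not tested. With 1 array per hairpin and a control array shared by both comparisons, precision is limited throughout by how few arrays there are. In bulk RNA, fewer expressing cells and less RNA per cell cannot be told apart.

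Foreign and endogenous lipophilic compounds are commonly handled in steps. Phase I enzymes (P450 enzymes, esterases, reductases, dehydrogenases) add or uncover a reactive group, and phase II enzymes attach glucuronic acid, sulfate, glutathione or an acetyl group, after which transporters export the product. The gut epithelium carries out this work on ingested compounds before they reach the liver. AHR, a ligand-activated transcription factor, and NR1I2 (the pregnane X receptor) sense such compounds and drive many of the enzyme genes, and NRF2, encoded by NFE2L2, drives others under electrophile stress.

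Letters read by these factors were looked up in the 250 bases before the annotated starts of the genes, in RefSeq sequence of build GRCh38.p14, where 37 of the 50 genes matched with 45 starts. The core GCGTG, bound by AHR, was searched on both strands and occurred in 13 of the 45 starts (28.9%), against 32.2% of 35097 starts of all genes. The letters TGACNNNGC, of the kind bound by NRF2, occurred in 7 of the 45 (15.6%), against 10.9% of all. Each motif was counted on its own, also where 2 matches overlap. GSTO1 and UGT1A6 are shown because probe sets of the gene or its cluster were lower in both lines and their windows hold such letters, and AADAC because it was the only listed gene at least 1.5-fold from control in both lines. All 4 windows are read 5′ to 3′ on the plus strand, with matches in capitals, which mark letters and not a known site. GSTO1 (chr10:104254642-104254891) held TGACNNNGC at 226 and 161 bases before the start. The 2 annotated starts of UGT1A6 held GCGTG at 200 bases (chr2:233691452-233691701) and TGACNNNGC at 98 bases (chr2:233692640-233692889) before them. AADAC (chr3:151813866-151814115) held neither motif in this window. Of the other listed genes called lower by limma (below), CYP2S1, GSTK1 and MGST1 held neither motif in their windows. MGST2 had no matched start. No probe set named UGT1A6 alone, so the lower values of the cluster cannot be placed at its starts. Any link between these letters and the values was not tested.
GSTO1: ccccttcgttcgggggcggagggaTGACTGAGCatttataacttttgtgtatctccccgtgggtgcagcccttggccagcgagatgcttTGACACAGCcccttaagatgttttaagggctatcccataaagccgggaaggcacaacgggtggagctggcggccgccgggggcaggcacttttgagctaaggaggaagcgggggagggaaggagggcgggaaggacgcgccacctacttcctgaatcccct
UGT1A6, first start: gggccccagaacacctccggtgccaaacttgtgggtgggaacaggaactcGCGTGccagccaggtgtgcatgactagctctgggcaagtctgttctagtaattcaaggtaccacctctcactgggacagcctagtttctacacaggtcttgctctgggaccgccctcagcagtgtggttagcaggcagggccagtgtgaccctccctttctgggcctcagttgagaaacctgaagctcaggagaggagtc
UGT1A6, second start: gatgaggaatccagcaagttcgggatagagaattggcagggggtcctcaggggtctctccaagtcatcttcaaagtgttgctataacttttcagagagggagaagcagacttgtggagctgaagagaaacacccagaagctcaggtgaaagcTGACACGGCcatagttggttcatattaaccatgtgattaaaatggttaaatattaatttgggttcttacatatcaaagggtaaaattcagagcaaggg
AADAC: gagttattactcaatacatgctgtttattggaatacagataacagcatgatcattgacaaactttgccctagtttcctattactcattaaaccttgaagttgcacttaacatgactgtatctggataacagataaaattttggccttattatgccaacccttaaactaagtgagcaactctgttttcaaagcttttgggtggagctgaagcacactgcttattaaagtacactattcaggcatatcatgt

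The knockdown lines were compared with control first by a rule of size (1.5-fold or more from control, in 1 direction for both lines) and then with limma, which sets the 2 knockdown arrays against the control and calls an adjusted p under 0.05 over all genes above the threshold. By size 1 of 32 listed genes was called, against 1.52% of all genes, and it was lower, against 0.159% of all genes, while 0 were higher, against 1.36%. In limma 8 of the 32 (25.0%) passed, against 12.7% of all genes. Of these, 6 fell (18.8%, against 3.06% of all genes) and 2 rose (6.25%, against 9.63%). The median log2 difference of the 32 genes was -0.09 in line 1 and -0.13 in line 2, beside -0.03 and -0.02 over all genes. Below control in both lines at any size were 18 of the 32 genes, against 45.7% of all genes, and 6 were above it in both, against 36.5%. Quantile normalization gave 2 rising and 8 falling listed genes, and for all genes it moved the calls from 1091 higher and 347 lower to 1143 and 789. Whether the lines are repeats of 1 experiment is not stated in the labels, so these p-values rest only on the spread between 2 arrays that carry different hairpins. Moderation draws the spread of each gene towards that of all genes, and the SEs are largely this pooled spread. GSTM4 had an SD between the lines of 0.0008 and an SE of 0.07. The single control array has no spread of its own and is taken to vary as the knockdown arrays do. The genes were listed with earlier results of these data known, so no count here is independent support for a direction.

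**Figure D1:**
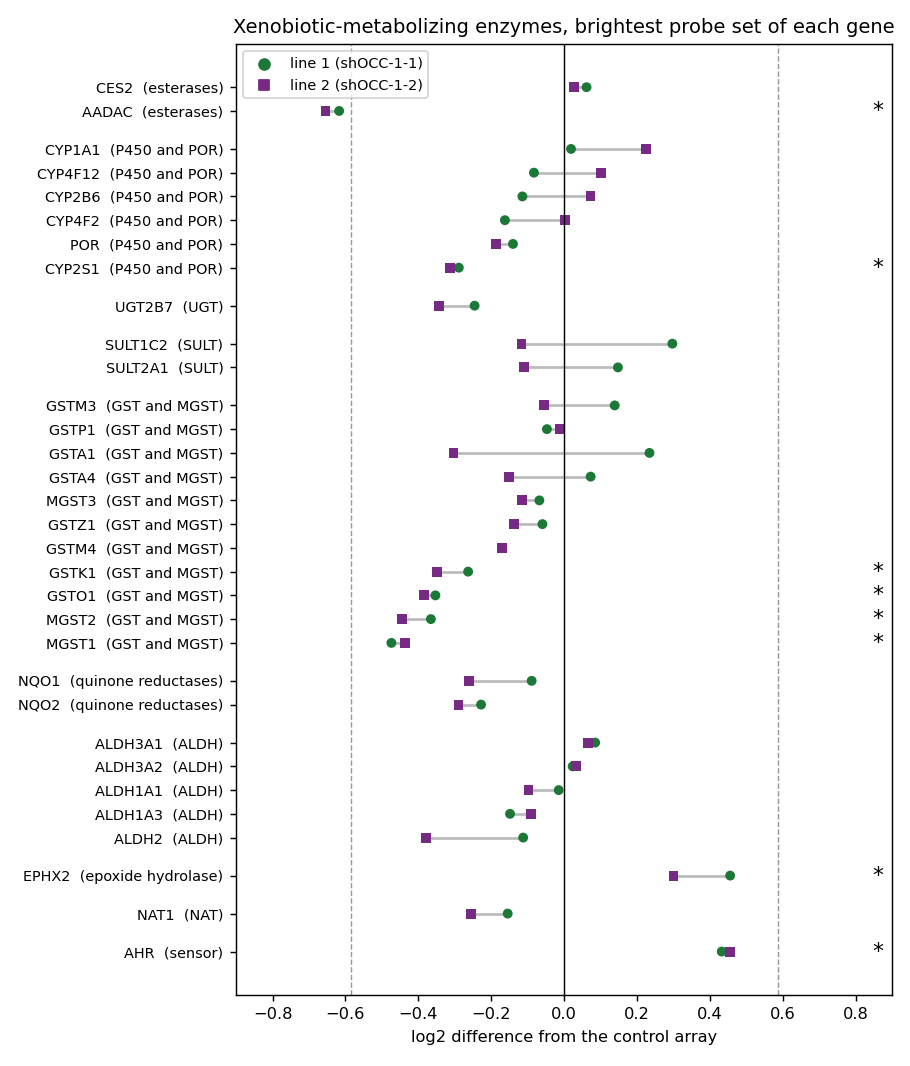
Log2 difference from the control array (horizontal axis) of the 32 listed genes above the intensity threshold, grouped by role. Circles are line 1, squares line 2, each from 1 array, dashed lines mark 1.5-fold, and asterisks mark the 8 genes with a limma adjusted p under 0.05. AADAC alone lies past 1.5-fold in both lines, and AHR and EPHX2 are the asterisked genes above 0.

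AADAC, the arylacetamide deacetylase of the endoplasmic reticulum that hydrolyses ester and amide drugs, fell most among the listed genes. Its intensity was 263 in control cells, 171 in line 1 and 167 in line 2, a decrease of 1.53-fold and 1.57-fold. The log2 difference was -0.64 ± 0.07 (SE, limma adjusted p = 0.0056). A single probe set read AADAC, and the intensity of both lines was below the threshold of 184, so that the gene passed the filter only through the control. It was the only such gene of the 32, and as a gene let in by the group where it was high its call does not count as support for the list. Without it 0 of 31 listed genes were past 1.5-fold and 5 fell in limma (16.1%, against 3.03% of all genes counted the same way). CES2, the carboxylesterase that dominates in the intestine, did not pass, with 499 in control cells, 521 in line 1 and 508 in line 2. Its second probe set was at 327, 326 and 324. CES1, the main carboxylesterase of liver and known to be made by Caco-2 cells, was read only by a probe set shared with the pseudogene CES1P1. That probe set was at 1862 in control cells, 1996 in line 1 and 1470 in line 2, on different sides of control in the 2 lines.

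Among P450 enzymes only CYP2S1, an extrahepatic enzyme of epithelia, passed limma. Its brightest probe set went from 582 in the control to 477 in line 1 and 469 in line 2 (log2 difference -0.30 ± 0.07 SE, limma adjusted p = 0.043). The other CYP2S1 probe set was lower by a like proportion, at 255, 206 and 208, so that lines 1 and 2 stood at 80.5% to 81.8% of control by either one. POR, the flavoprotein that passes electrons from NADPH to microsomal P450 enzymes, was at 1035, 939 and 909 and did not pass (limma adjusted p = 0.19). All 4 POR probe sets were below control in both lines, at 90.7% to 95.3% in line 1 and 83.6% to 91.3% in line 2. CYP1A1, the classic AHR-induced enzyme, was at 327 in the control and 331 in line 1, and at 382 in line 2 (limma adjusted p = 0.45). CYP2B6, CYP4F2 and CYP4F12, by the brightest probe set of each, were 1.06-fold to 1.12-fold below control in line 1. In line 2 they were at 100.1% to 107.2% of it, and none passed. The other CYP4F12 probe set above the threshold was at 98.0% of control in line 1 and 94.9% in line 2. Probe sets shared by CYP2B6 and CYP2B7P or by CYP4F2 and CYP4F3 were at 88.5% to 98.8% in line 1 and 95.7% to 99.0% in line 2. CYP1B1, CYP2J2, CYP2W1, CYP3A4, CYP3A5 and CYP3A7 lay below the intensity threshold with every probe set of their own. The 3 CYP3A5 probe sets, for an enzyme of the gut and liver with broad drug substrates, were at 99.7 to 165 in control cells, 94.6 to 134 in line 1 and 90.2 to 126 in line 2, each lower in both lines. The 4 probe sets of CYP3A4, the main drug-oxidizing P450 of mature enterocytes, were at 84.7 to 174 in control cells, 80.6 to 178 in line 1 and 81.0 to 189 in line 2, with no common direction. In all, 11 listed genes with 28 probe sets fell short of the threshold, with intensities of 69.4 to 196, and none of those probe sets reached 1.5-fold in both lines.

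Glutathione transferases, which join glutathione to electrophiles, were the role group with the most calls. All 11 genes were above the threshold, 4 fell in limma, 0 rose (0 also at an unadjusted p under 0.05), and 8 were below control in both lines, where 3.06% of all genes fell and 45.7% were below control in both lines. With the probe sets of each gene averaged, 2 of 10 fell, GSTO1 and MGST2. MGST1, a membrane-bound transferase of the endoplasmic reticulum and mitochondria, went from 5763 in the control to 4149 in line 1 and 4259 in line 2 by its brightest probe set (log2 difference -0.46 ± 0.07 SE, limma adjusted p = 0.013). MGST2, a relative that can also form leukotriene C4, went from 3149 to 2444 and 2314 (-0.41 ± 0.08 SE, limma adjusted p = 0.020). GSTO1, the omega-class enzyme with thioltransferase and dehydroascorbate reductase activity, went from 8086 to 6329 and 6189 (-0.37 ± 0.07 SE, limma adjusted p = 0.024). GSTK1, the kappa-class enzyme of mitochondria and peroxisomes, went from 2530 to 2108 and 1985 (-0.31 ± 0.08 SE, limma adjusted p = 0.048), and its adjusted p was 0.0503 with normexp background correction and 0.127 with its probe sets averaged, where the log2 difference was -0.16. For all 4 the lines stood at 72.0% to 83.3% of control and lay nearer to each other than to the control. GSTO1 and MGST2 were each read by a single probe set, and both other GSTK1 probe sets were below the threshold.

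The remaining transferases did not pass. GSTP1, the pi-class enzyme abundant in many tumors, was at 8383 in control cells, 8111 in line 1 and 8310 in line 2, and its other probe set at 1975, 1851 and 1899. MGST3 was at 4449, 4244 and 4104 by the brightest probe set, and at 2957, 3457 and 3337 by the other, so that its 2 probe sets pointed in different directions. By their brightest probe sets GSTM4 and GSTZ1 were at 88.8% to 95.9% of control in the 2 lines. GSTA1, GSTA4 and GSTM3 were, by their brightest probe sets, above control in line 1 and below it in line 2. The other GSTA4 probe sets were at 108.7% to 122.9% of control in line 1 and 95.9% to 102.8% in line 2.

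MGST1 read differently by its 3 probe sets, all above the threshold. The second, at 3685 in control cells, 3070 in line 1 and 3132 in line 2, was below control in both lines, as was the brightest. The third, whose name ends in _s_at, the maker's mark for probes shared by several transcripts, was at 956 in control cells, 1441 in line 1 and 1631 in line 2, an increase of 1.51-fold and 1.71-fold. In a limma fit over all 23551 named probe sets above the threshold it rose (log2 difference 0.68 ± 0.09 SE, adjusted p = 0.0035), while the brightest fell (adjusted p = 0.0072) and the second did not pass (adjusted p = 0.063). With its 3 probe sets averaged MGST1 had a log2 difference of -0.01 (limma adjusted p = 0.95), so its direction depends on the probe set. Across the listed genes 24 other probe sets in 17 genes could be set beside the brightest. Of these, 3 (12.5%) lay on the other side of control in both lines, against 20.5% of such probe sets over all genes, and this MGST1 probe set was the only 1 of the 24 called by limma in the direction against a called brightest probe set, as 0.256% of them were over all genes. Of the 56 listed probe sets above the threshold, 2 were past 1.5-fold in both lines, against 1.52% of all such probe sets. These were AADAC, lower (as were 0.11% of all), and the third MGST1 probe set, higher (as were 1.41%).

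**Figure D2:**
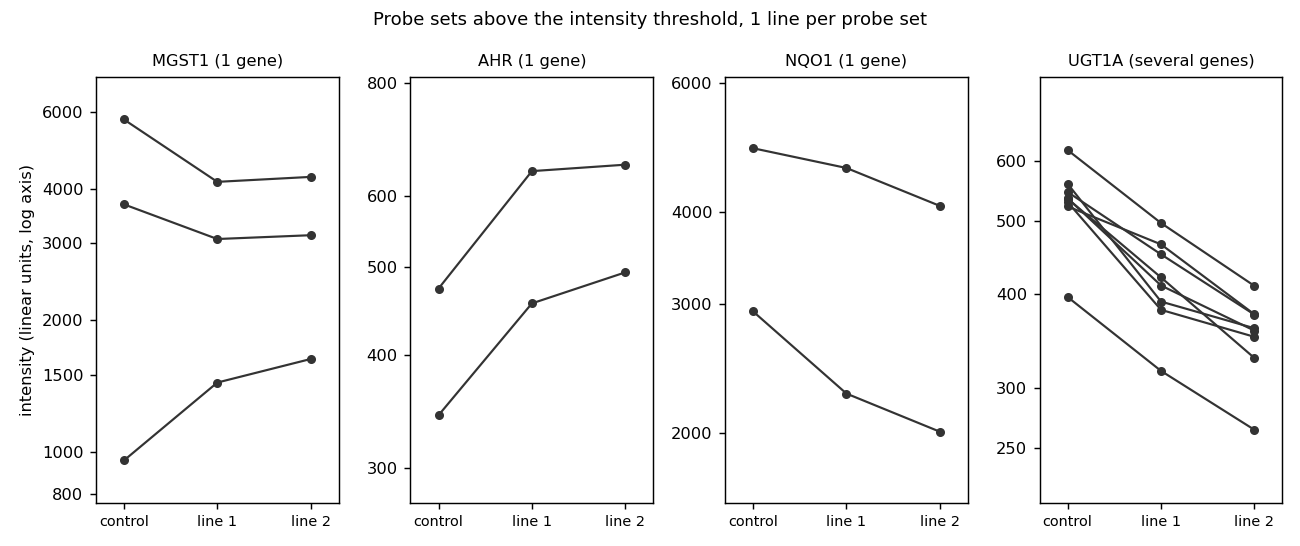
Intensity (vertical log axis, linear units) on the 3 arrays for each probe set of MGST1, AHR, NQO1 and the UGT1A cluster above the threshold, with 1 line per probe set and 1 array per point. MGST1 probe sets run in different directions, both AHR probe sets are higher in the knockdown lines, and the 8 UGT1A probe sets are lower in both lines.

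UDP-glucuronosyltransferases attach glucuronic acid to phenols, bilirubin, steroids and drugs. UGT1A6 belongs to a cluster whose members differ in their first exon and share the remaining exons, and no probe set named it alone. Of 9 probe sets that named it with other UGT1A genes, 8 were above the threshold, and each of these named 9 genes. They were at 396 to 621 in control cells, 316 to 497 in line 1 and 264 to 410 in line 2, and every one of the 8 was below control in both lines and lower in line 2 than in line 1. Their medians were 79.2% of control in line 1 and 66.5% in line 2. In the fit over probe sets 7 of the 8 fell (adjusted p from 0.0042 to 0.042, and 0.11 for the other), against 3.86% of all probe sets. Line 2 was past 1.5-fold for 5 of the 8 and line 1 for 0. These probe sets name the same genes and are not independent, and which UGT1A gene each reads is not given. UGT2B7, which conjugates opioids and steroids, was at 220 in control cells, 186 in line 1 and 173 in line 2, and did not pass (log2 difference -0.29 ± 0.08 SE, limma adjusted p = 0.057). It fell without the filter (limma adjusted p = 0.025), with probe sets averaged per gene (0.043), after quantile normalization (0.049) and in the fit over probe sets (0.045), and did not pass under the other settings that kept it. UGT2B15 (3 probe sets) and UGT2A3 (3) were below the threshold. Each probe set naming UGT2B15 alone was below control in both lines, by log2 0.08 to 0.24. The 2 probe sets shared by UGT2B15 and UGT2B17 were below the threshold too. The first was at 72.0 in control cells, 76.8 in line 1 and 77.1 in line 2, above control in both lines. The second was at 73.1, 71.4 and 74.9.

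Sulfotransferases, which add sulfate to phenols and steroids, split between the lines. SULT1C2 was at 272 in control cells, 334 in line 1 and 251 in line 2, and SULT2A1, the hydroxysteroid enzyme, at 712, 789 and 659. Neither passed limma, and 0 of the 2 had an unadjusted p under 0.05. The second SULT1C2 probe set had the same order of arrays (215, 232 and 190), while that of SULT2A1 was below control in both lines (536, 479 and 399). SULT1B1 and SULT1E1 were below the threshold.

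Among the listed genes the lines differed most for GSTA1, the alpha-class transferase of enterocytes and liver, with 966 in control cells, 1135 in line 1 and 782 in line 2. The lines were 1.45-fold apart for GSTA1 and 1.33-fold for SULT1C2, and 2 of the 32 genes were thus at least 1.3-fold apart, against 0.733% of all genes. Lines 1 and 2 lay on different sides of control for 8 of the 32 genes (25.0%), against 17.7% of all genes. Line 2 was the lower line for 22 of the 32 (68.8%), against 52.3% of all genes. ALDH2 and SULT2A1 followed at 1.204-fold and 1.196-fold apart. All 4 GSTA4 probe sets were above control in line 1 and lower in line 2 than in line 1. With 1 array per line these differences have no replicate check, and the SD of the log2 difference between the lines over all genes was 0.11.

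**Figure D3:**
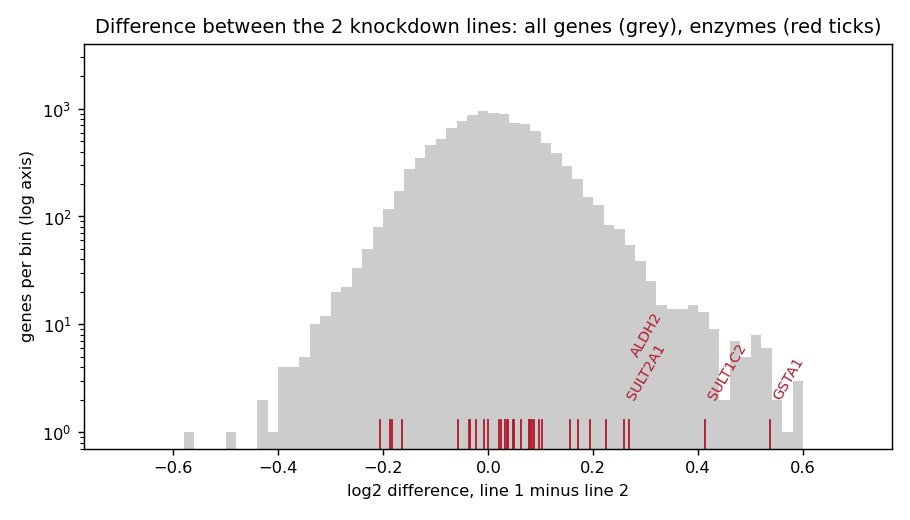
Log2 difference of line 1 minus line 2 (horizontal axis) for all 11329 genes (grey, genes per bin of 0.02 on a log axis) and the 32 listed genes (red ticks at the base). GSTA1 and SULT1C2 stand farthest to the right, above in line 1, and ALDH2 and SULT2A1 follow.

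The quinone reductases NQO1 and NQO2, which carry out hydride reduction of quinones, were below control in both lines. NQO2 was at 929 in control cells, 793 in line 1 and 760 in line 2 (log2 difference -0.26 ± 0.08 SE, limma adjusted p = 0.071) and passed under 3 of 8 other settings. NQO1 was at 4891, 4597 and 4082 by its brightest probe set (limma adjusted p = 0.25). Its second probe set, with a name in _s_at, was lower by more, at 2931 in control cells, 2265 in line 1 and 2009 in line 2. It fell in the limma fit over probe sets (log2 difference -0.46 ± 0.09 SE, adjusted p = 0.014).

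Aldehyde dehydrogenases, which oxidize aldehydes to acids, had 0 of 5 genes passing limma and 0 at an unadjusted p under 0.05. ALDH1A1, a retinaldehyde dehydrogenase, was at 1552, 1536 and 1450 in control, line 1 and line 2, and the mitochondrial ALDH2 at 1868, 1728 and 1435. ALDH3A1 (326, 346 and 341) and ALDH3A2 (1269, 1289 and 1297) were close to control in both lines, and ALDH1A3 was at 245, 221 and 230. NAT1, the arylamine N-acetyltransferase of most tissues, was at 510, 458 and 427 and did not pass (limma adjusted p = 0.14).

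EPHX2, the soluble epoxide hydrolase that turns fatty acid epoxides into diols, rose from 723 in the control to 991 in line 1 and 890 in line 2 (log2 difference 0.38 ± 0.09 SE, limma adjusted p = 0.039). Its second probe set, at 376, 419 and 365, lay above control in line 1 and below it in line 2. That one did not pass in the limma fit over probe sets (adjusted p = 0.72). With the mean of both probe sets the gene did not pass (limma adjusted p = 0.14). EPHX1, the microsomal hydrolase, had a mean just below the threshold and was left out of the main fit. It was at 184 in control cells, 196 in line 1 and 167 in line 2.

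AHR rose from 474 in the control to 639 in line 1 and 649 in line 2, an increase of 1.35-fold and 1.37-fold (log2 difference 0.44 ± 0.07 SE, limma adjusted p = 0.013). The name of this probe set ends in _x_at, the maker's mark for probes that may match other sequences. Its second probe set, with a name in _s_at, was at 343, 456 and 494. That one rose too in the limma fit over probe sets (adjusted p = 0.0087). The remaining, dim probe set, with neither mark, was at 138, 122 and 121, below control in both lines. With the mean of all 3 the limma adjusted p of AHR was 0.055. Of the pathway list, TIPARP, an ADP-ribosyltransferase induced by AHR, was at 398 in control cells, 444 in line 1 and 451 in line 2 (limma adjusted p = 0.175). AHRR, the AHR repressor, was at 339, 284 and 314 (limma adjusted p = 0.207). The AHR partner ARNT was at 292, 319 and 339 (limma adjusted p = 0.19).

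Other genes of the pathway were taken from a list of 146, of which 71 were above the threshold. In limma 9 rose and 4 fell (18.3% in all), where 9.63% of all genes rose and 3.06% fell, and 2 were past 1.5-fold in both lines, as were 1.52% of all genes. ABCC4, which exports conjugates and cyclic nucleotides, went from 588 in the control to 993 in line 1 and 1065 in line 2, an increase of 1.69-fold and 1.81-fold. UGT8, which makes galactosylceramide, went from 828 to 546 and 512, a decrease of 1.52-fold and 1.62-fold. With probe sets averaged per gene, 0 of 60 pathway genes were past 1.5-fold and 7 passed limma. In that setting 660 of 9481 genes rose in limma and 316 fell. The single pathway genes named here rest on the brightest probe set of each. Of 19 genes for the supply of cofactors or the making and breakdown of heme, 4 rose (MAT2A, SLC35B3, BPNT1 and ME1) and HMOX1 fell. MAT2A makes S-adenosylmethionine, SLC35B3 carries the sulfate donor into the Golgi, BPNT1 clears its by-product and ME1 supplies NADPH. Of 18 other phase I enzymes the carbonyl reductase CBR1 rose, from 1419 to 1900 and 1907, and of 10 other conjugation genes GSTCD rose and UGT8 fell. Among 13 sensors and partners, NFE2L2 rose from 1527 in the control to 2066 in line 1 and 2040 in line 2 (log2 difference 0.43 ± 0.07 SE, limma adjusted p = 0.015), as did the coactivator NCOA1, while the NRF2 partner MAFG fell from 977 to 742 and 740 (-0.40 ± 0.07 SE, limma adjusted p = 0.018). HMOX1, a heme oxygenase, fell from 1060 in the control to 774 and 818 (-0.41 ± 0.08 SE, limma adjusted p = 0.019). The activity of NRF2 was not measured, and its part in these values was not tested. KEAP1, which holds NRF2 back, was at 778, 695 and 739 and did not pass. Among 11 transporters ABCC4 rose and the uptake carrier SLCO4A1 fell.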

How the data were processed

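Total RNA of 3 Caco-2 samples was labelled as biotinylated cRNA and read on oligonucleotide arrays. The authors' deposited values were 1 linear intensity per probe set and array, made with RMA per the submitters' processing notes. Its version and settings are not given in the sources used here. Values were converted to log2 here, with no further normalization.

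Probe sets took symbols from the platform annotation, checked by gene identifier against RefSeq (44961 found, 0 changed). Of 49395 probe sets 44988 named 1 gene, 1832 several and 2473 none, and 102 were array controls. The brightest stood for each gene, and genes below the median of all probe sets were left out. For 14 of the 32 listed genes that probe set ended in _x_at, the maker's mark for probes that may match other sequences.

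Two-sided tests by limma 3.58.1 in R 4.3.3 used lmFit with eBayes, and p-values were adjusted over 11329 genes by Benjamini-Hochberg. The fit had 1 residual degree of freedom and 6.96 after moderation, and was tested on simulated data. The fit over probe sets and the counts without AADAC were added after seeing the data. The files hold linear intensities where a log2 scale had been foreseen. Listed and pathway genes were chosen with earlier results of these data known. By rule, values on all arrays were given for listed genes past either test, the 5 highest and 5 lowest, the 4 most different between lines, the 5 brightest, POR and AHR, and for pathway genes past 1.5-fold. Other listed and pathway genes given with values were chosen after their values were seen. No 2 arrays shared a value on any probe set. Python 3.11.15, pandas 2.3.3 and matplotlib 3.10.9 were used for motif counts and plots.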

Additional observations from a re-analysis of the deposited data

How the results depend on the processing

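Alternatives were other scalings (quantile, cyclic loess), normexp background correction, 2 other filters, other fold thresholds, the mean of all probe sets, probe sets of several genes, an intensity trend in eBayes and leaving out a line. The number of listed genes passing limma ran from 6 of 28 tested (mean of all probe sets) to 11 of 43 (no filter). With the mean, 0 rose and 6 fell, where 660 of 9481 genes rose and 316 fell. Without the filter, 2 rose and 9 fell, where 1495 of 18132 genes rose and 713 fell. The size rule gave 0 listed genes after cyclic loess and 0 with the 75th percentile filter, which left out AADAC. AADAC had a log2 difference of -0.60 after cyclic loess and still passed limma. The rule gave 3 listed genes at 1.3-fold and 0 at 2-fold. Listed probe sets past the rule numbered 5 at 1.3-fold, 0 at 2-fold, 0 after cyclic loess, 1 after quantile normalization and 1 with the 75th percentile filter. The median of listed genes moved in line 1 to -0.027 when probe sets of a gene were averaged, to -0.14 in line 1 and -0.17 in line 2 after quantile normalization, and to -0.19 in line 2 with the 75th percentile filter. Pathway genes past the rule numbered 6 at 1.3-fold, 0 at 2-fold and 0 with the mean of all probe sets, where 7 of 60 passed limma. No share of all genes at 1.3-fold or 2-fold is given here. The counts at those thresholds therefore cannot be read as a result about the listed or pathway genes. With probe sets of several genes kept, 22 pathway genes of 85 tested passed, where 1193 of 12278 genes rose and 373 fell. In this setting a probe set stands for every gene it names, so 1 probe set can be counted for several of these genes. Apart from the smaller gene set of the stricter filter, the cause was not tested.

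Without line 1 or line 2 the size rule called 1 listed gene, 2 listed probe sets and 2 to 3 pathway genes, and no limma test remains. Single calls were lost for AHR, EPHX2, GSTK1 and MGST1 with the mean of all probe sets and for GSTK1 with normexp. No paired analysis was possible because the groups share fewer than 2 replicate numbers. Weak signals near the threshold limit what can be seen for the CYP3A genes, CYP1B1, SULT1B1 and SULT1E1.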
